A study of Mus musculus with 10 samples.

Results

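Of the Notch pathway, 10 genes were described across all libraries of the series: the ligand genes Dll3 and Jag1, the receptor genes Notch1 and Notch3, the Deltex genes Dtx1 and Dtx4, and the repressor genes Hes1, Hes5, Hes6 and Hey1. They were chosen by gene symbol from 31053 genes in the count files, and 10 of 10 passed the filter on low counts that left 11215 genes. RNA came from E14 mouse embryonic stem (ES) cells with a stable Esrrb construct that doxycycline (DOX) induces, and all 3 groups carry this construct. Esrrb encodes an orphan nuclear receptor that helps to maintain naive ES cells. The groups were cells 96 h after removal of 2iL with DOX (3 libraries), cells 96 h after removal of 2iL without DOX (3 libraries), and cells kept in 2iL without DOX (4 libraries). In 2iL, the GSK3 inhibitor CHIR99021 (3 µM) and the MEK inhibitor PD0325901 (1 µM) act with the cytokine LIF to hold naive pluripotency. Cells with DOX in 2iL and a line without the construct were not analysed here, so effects of DOX and of Esrrb cannot be told apart.

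Notch signalling passes between touching cells. A ligand on 1 cell, such as Jag1, triggers cleavage of a receptor on its neighbour, and the freed intracellular part of the receptor joins RBPJ on DNA to switch on Hes and Hey genes, whose products repress transcription. Dll3 is a divergent ligand that dampens Notch signalling within its own cell, Deltex proteins are ubiquitin ligases that act on Notch receptors, and Hes6 opposes Hes1 and favours neuronal differentiation. In ES cells the pathway is known for promoting neural fate.

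Reads came from the 3′ ends of polyA RNA, with 1253620 reads in genes in the 96 h DOX library exp1_2 and 2769071 to 4715450 in the other 9. Titles name experiments 1 and 2 and a library number, written here as exp1_1 for library 1 of experiment 1. The labels do not tell whether libraries stem from different cultures, so p-values measure only the spread between these samples, which may be technical. The 96 h DOX library exp1_2 stood apart: it had the fewest reads of the 10 libraries, Gm42418 took 14.8% of its reads (3.39% to 6.61% in the other 9), and 7 fibroblast markers summed to 2098 CPM there, against at most 22.9 CPM in the others. Sums over marker lists are plain CPM (counts scaled to a common library total), and levels of single genes are CPM scaled further between libraries by the TMM method of edgeR. Esrrb held 12.8, 14.6 and 26.9 CPM in 96 h DOX libraries, 13.5 to 31.9 CPM in 96 h libraries without DOX and 228 to 377 CPM in 2iL, so its 3′ reads did not show induction. Whether the construct carries that 3′ end was not known from the labels. The 8 stem cell and epiblast markers summed to 2098 to 2347 CPM with DOX, 1520 to 1828 CPM without DOX and 1180 to 1385 CPM in 2iL, and each of them had reads in each group.

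Promoter sequences are shown for Dtx1 and Hes6, which changed in both main comparisons, and for Hes5, the only gene searched whose window held matches to the RBPJ motif. Windows run from 250 bases before to 50 bases after a gene's start, are credited to RefSeq on GRCm38.p6, and are written 5′ to 3′ on the gene's strand. RefSeq entries were found for 7 of the 10 genes (8 windows). Hes1, Hey1 and Dtx4, the last of which also changed in both main comparisons, had no entry and were not searched. Capitals mark matches, on either strand, to GTGGGAA (RBPJ), AAGGTCA (Esrrb) or CACNAG (the N box that Hes repressors bind). Dtx1 lies at chr5:120711620-120711919 on the minus strand. The windows of Hes6, on the minus strand, lie at chr1:91413989-91414288 (start 1) and chr1:91413173-91413472 (start 2), and Hes5 lies at chr4:154960673-154960972 on the plus strand.
Dtx1: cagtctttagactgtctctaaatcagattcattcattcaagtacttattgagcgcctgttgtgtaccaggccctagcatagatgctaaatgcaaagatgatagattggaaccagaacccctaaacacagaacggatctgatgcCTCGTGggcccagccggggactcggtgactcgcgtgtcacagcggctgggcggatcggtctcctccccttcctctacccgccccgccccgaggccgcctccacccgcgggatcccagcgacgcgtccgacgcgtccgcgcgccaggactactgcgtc
Hes6 start 1: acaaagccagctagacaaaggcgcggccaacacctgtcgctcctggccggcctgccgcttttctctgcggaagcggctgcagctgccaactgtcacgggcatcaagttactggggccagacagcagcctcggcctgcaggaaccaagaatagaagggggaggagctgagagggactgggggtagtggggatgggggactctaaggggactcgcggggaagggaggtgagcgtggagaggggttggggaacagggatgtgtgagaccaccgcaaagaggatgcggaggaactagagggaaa
Hes6 start 2: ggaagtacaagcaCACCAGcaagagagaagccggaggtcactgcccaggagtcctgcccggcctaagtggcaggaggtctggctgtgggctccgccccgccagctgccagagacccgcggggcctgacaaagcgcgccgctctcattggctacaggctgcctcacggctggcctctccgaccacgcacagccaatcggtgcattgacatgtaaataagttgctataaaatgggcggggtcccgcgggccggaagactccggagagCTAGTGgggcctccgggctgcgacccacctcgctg
Hes5: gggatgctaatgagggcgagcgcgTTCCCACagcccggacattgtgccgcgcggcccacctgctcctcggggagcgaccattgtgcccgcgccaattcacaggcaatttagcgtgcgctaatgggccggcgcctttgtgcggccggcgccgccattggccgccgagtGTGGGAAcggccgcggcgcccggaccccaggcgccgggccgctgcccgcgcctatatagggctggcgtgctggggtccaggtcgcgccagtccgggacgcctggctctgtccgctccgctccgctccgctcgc

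The Hes5 window held the RBPJ letters at 226 bases before the start (on the reverse strand of the printed sequence) and again at 83 bases before the start. Of all 32851 promoter windows in the RefSeq table, 6.38% held GTGGGAA, 4.72% held AAGGTCA and 42.5% held CACNAG. The N box letters were found in the windows of Dtx1, Notch1 and Notch3 and in 1 of the 2 windows of Hes6. The 3 motifs had no match in the windows of Dll3 and Jag1 and in the other window of Hes6, and the Esrrb letters were in none of the 8 windows. These matches describe letters in a window and are not binding sites.

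Setting 96 h DOX cells against 96 h no-DOX cells asks what differed with DOX in cells 96 h after removal of 2iL. Dtx1, Dtx4 and Hes6 were lower with DOX, by 3.33- to 4.76-fold in mean level, and the other 7 genes did not pass the test. Changes are log2 fold changes with a standard error (SE), and a gene was called at a Benjamini-Hochberg adjusted p below 0.05 over all 11215 genes in edgeR's quasi-likelihood test. Of all genes tested, 3.1% were called in this comparison and 0.945% were called lower, while 3 of the 10 Notch genes were called and all 3 were lower. The 10 genes were listed with earlier results of these data known.

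Dtx1 (ENSMUSG00000029603, GRCm38 chromosome 5, 120680202 to 120711927), a ubiquitin ligase that binds Notch receptors, had 26.3, 8.75 and 21.4 CPM in DOX libraries exp1_1, exp1_2 and exp2_1, against 87.8, 79.5 and 101.6 CPM in no-DOX libraries exp1_1, exp1_2 and exp2_2. The lowest no-DOX library lay above the highest DOX library. With 3 and 3 libraries unchanged genes can lie apart too, and how many of all genes did so was not counted. The log2 fold change was -2.19 ± 0.35 (SE; n = 3 and 3; edgeR adjusted p = 0.000896). It was -2.15 in experiment 1 and -2.24 in experiment 2. Without the DOX library exp1_2, in which Dtx1 had 12 reads, the value was -1.91 (edgeR adjusted p = 0.00151). Experiment 2 held 1 library in each 96 h group and so gave values without a test.

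Dtx4 (ENSMUSG00000039982, GRCm38 chromosome 19, 12466338 to 12501454), a relative of Dtx1, had 38.4, 18.2 and 16.8 CPM in the DOX libraries exp1_1, exp1_2 and exp2_1, against 103.6, 91.9 and 74.4 CPM in the no-DOX libraries exp1_1, exp1_2 and exp2_2. These groups did not overlap either. Dtx4 fell by 1.84 on the log2 scale (SE 0.33; edgeR adjusted p = 0.00273), by 1.73 in experiment 1 and by 2.14 in experiment 2. Without DOX exp1_2 the log2 fold change was -1.70 (edgeR adjusted p = 0.00807). With experiment 1 alone the call was lost (-1.72, adjusted p = 0.0529; 6.51e-06 to 0.0529 over the 11 alternatives other than single omissions).

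Hes6 (ENSMUSG00000067071, GRCm38 chromosome 1, 91411483 to 91414038), the atypical Hes factor, had 104.9, 40.8 and 74.4 CPM in the DOX libraries exp1_1, exp1_2 and exp2_1, against 233, 287 and 212 CPM in the no-DOX libraries exp1_1, exp1_2 and exp2_2. Again each no-DOX library was above each DOX library. The log2 fold change was -1.71 ± 0.29 (edgeR adjusted p = 0.00142), with -1.80 within experiment 1, -1.51 within experiment 2 and -1.45 without DOX exp1_2.

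**Figure D1:**
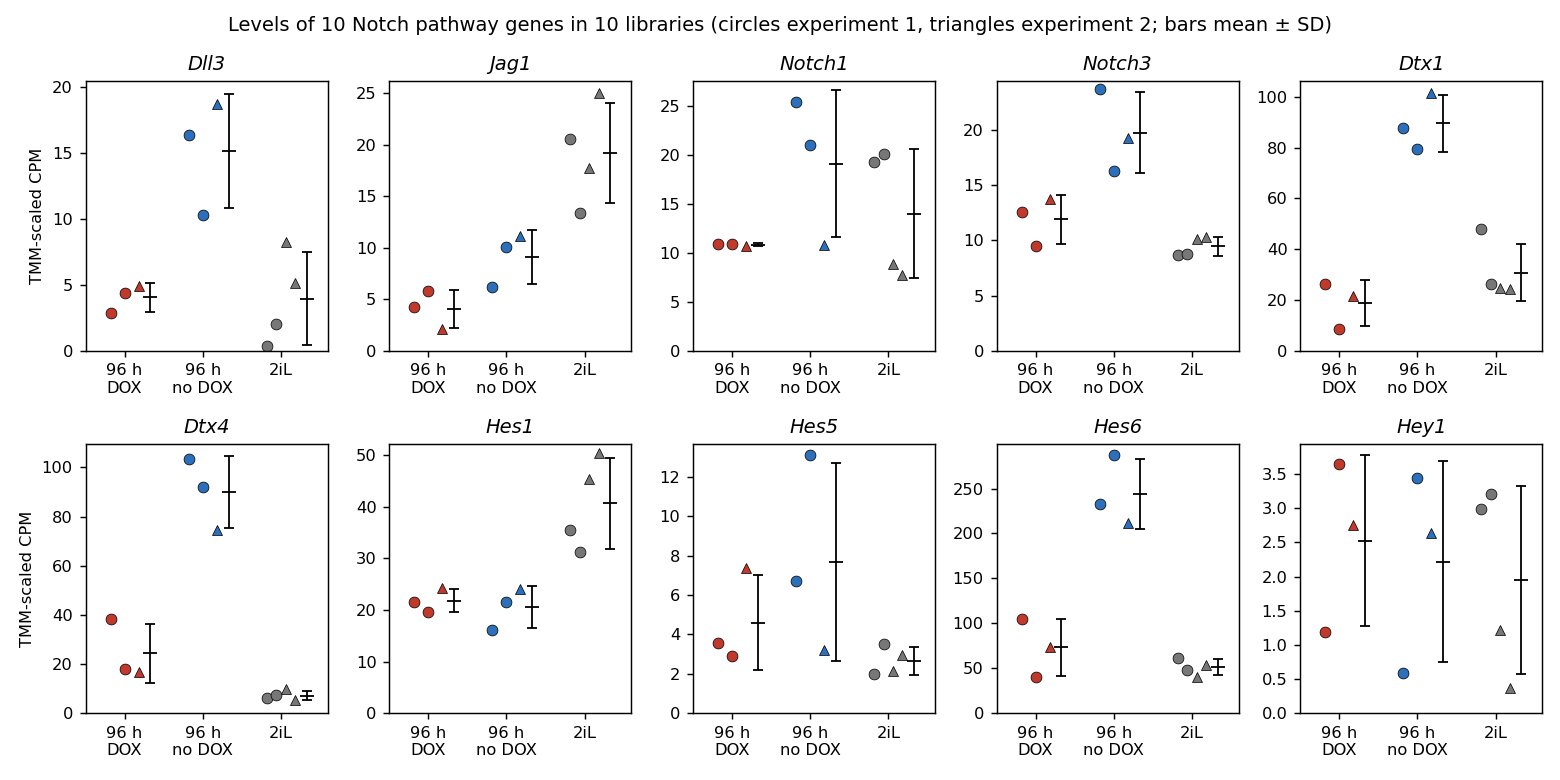
TMM-scaled CPM (vertical axes, each from 0) of the 10 genes in each library of the 96 h DOX, 96 h no-DOX and 2iL groups; circles are libraries of experiment 1, triangles of experiment 2, and bars give mean ± SD (n = 3, 3 and 4). For Dtx1, Dtx4, Hes6, Dll3 and Notch3 the no-DOX libraries lie above those of both other groups, though Dll3 and Notch3 did not pass with DOX against no DOX. The share of all genes whose groups lie apart in this way was not counted. For Hes1 and Jag1 the 2iL libraries lie above those of both 96 h groups.

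Among the ligands, Dll3 (ENSMUSG00000003436, GRCm38 chromosome 7, 28293553 to 28302238) had 2.84, 4.37 and 4.90 CPM with DOX, against 16.4, 10.3 and 18.7 CPM without DOX. The groups did not overlap, but the log2 fold change of -1.91 ± 0.68 did not pass (edgeR adjusted p = 0.157), and the DOX group held 34 reads of Dll3 in all. Without DOX exp1_2 it was -1.97 (edgeR adjusted p = 0.247). Jag1 (ENSMUSG00000027276, GRCm38 chromosome 2, 137081456 to 137116644) had 4.26, 5.83 and 2.14 CPM with DOX, against 6.14, 10.1 and 11.1 CPM without DOX. It did not pass (-1.23 ± 0.48; edgeR adjusted p = 0.214; 95% interval -2.24 to -0.22), and the value was -0.74 within experiment 1, -2.36 within experiment 2 and -1.48 without DOX exp1_2 (adjusted p = 0.188).

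The receptor genes did not pass. Notch3 (ENSMUSG00000038146, GRCm38 chromosome 17, 32120820 to 32166852) had 12.6, 9.47 and 13.8 CPM with DOX, against 23.7, 16.3 and 19.3 CPM without DOX, a log2 fold change of -0.70 ± 0.37 (edgeR adjusted p = 0.394). Its DOX and no-DOX libraries did not overlap, and its 95% interval ran from -1.48 to 0.07. Without DOX exp1_2 its value was -0.59 (edgeR adjusted p = 0.642). Notch1 (ENSMUSG00000026923, GRCm38 chromosome 2, 26457903 to 26516663) had 10.9, 10.9 and 10.7 CPM with DOX, against 25.5, 21.1 and 10.8 CPM without DOX (-0.81 ± 0.45; edgeR adjusted p = 0.410). The no-DOX library of experiment 2 was level with the DOX libraries, and the log2 fold change was -1.08 within experiment 1, -0.02 within experiment 2 and -0.82 without DOX exp1_2 (adjusted p = 0.559).

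Hes1 (ENSMUSG00000022528, GRCm38 chromosome 16, 30064384 to 30067796), the classic Notch target repressor, had 21.5, 19.7 and 24.2 CPM with DOX, against 16.1, 21.5 and 24.0 CPM without DOX. Its groups overlapped, with a log2 fold change of 0.10 ± 0.31 (edgeR adjusted p = 0.922; 95% interval -0.55 to 0.75). Hes5 (ENSMUSG00000048001, GRCm38 chromosome 4, 154960923 to 154962371), a Notch target in neural progenitors, had 3.55, 2.92 and 7.35 CPM with DOX, against 6.73, 13.1 and 3.22 CPM without DOX (-0.71 ± 0.65; edgeR adjusted p = 0.663). Hey1 (ENSMUSG00000040289, GRCm38 chromosome 3, 8663359 to 8667256) ranged from 1.18 to 3.64 CPM with DOX and from 0.585 to 3.44 CPM without DOX, on 19 and 27 reads in all. Hey1 did not pass (0.09 ± 0.96; edgeR adjusted p = 0.978), and its 95% interval was wide, from -1.91 to 2.10.

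Marker genes of other cell states also differed between these groups. The 8 early neural markers summed to 243 to 319 CPM with DOX, 722 to 734 CPM without DOX and 67.2 to 78.7 CPM in 2iL (Hoxa2 at 0), and 2 of the 6 tested were called lower with DOX (3 without DOX exp1_2). The 9 naive pluripotency markers summed to 652 to 1156 CPM with DOX, 203 to 258 CPM without DOX and 2341 to 2684 CPM in 2iL. With DOX against no DOX, 5 of these 9 were called higher, with or without DOX exp1_2. The 9 extraembryonic endoderm markers summed to 337 to 609 CPM with DOX, 21.5 to 31.5 CPM without DOX and 17.6 to 28.5 CPM in 2iL, with Foxq1 and Sox7 at 0 reads in the no-DOX group and Sox7 at 0 in 2iL, and 8 of the 8 tested were called higher with DOX (6 without DOX exp1_2). The 6 formative epiblast markers summed to 2092 to 2942 CPM with DOX, 2788 to 3050 CPM without DOX and 247 to 280 CPM in 2iL. Of these 6, 1 was called higher and 1 lower with DOX against no DOX, with or without DOX exp1_2. In bulk RNA, fewer cells of a type and less RNA per cell cannot be told apart. The part of these markers in the Notch gene results was not tested.

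**Figure D2:**
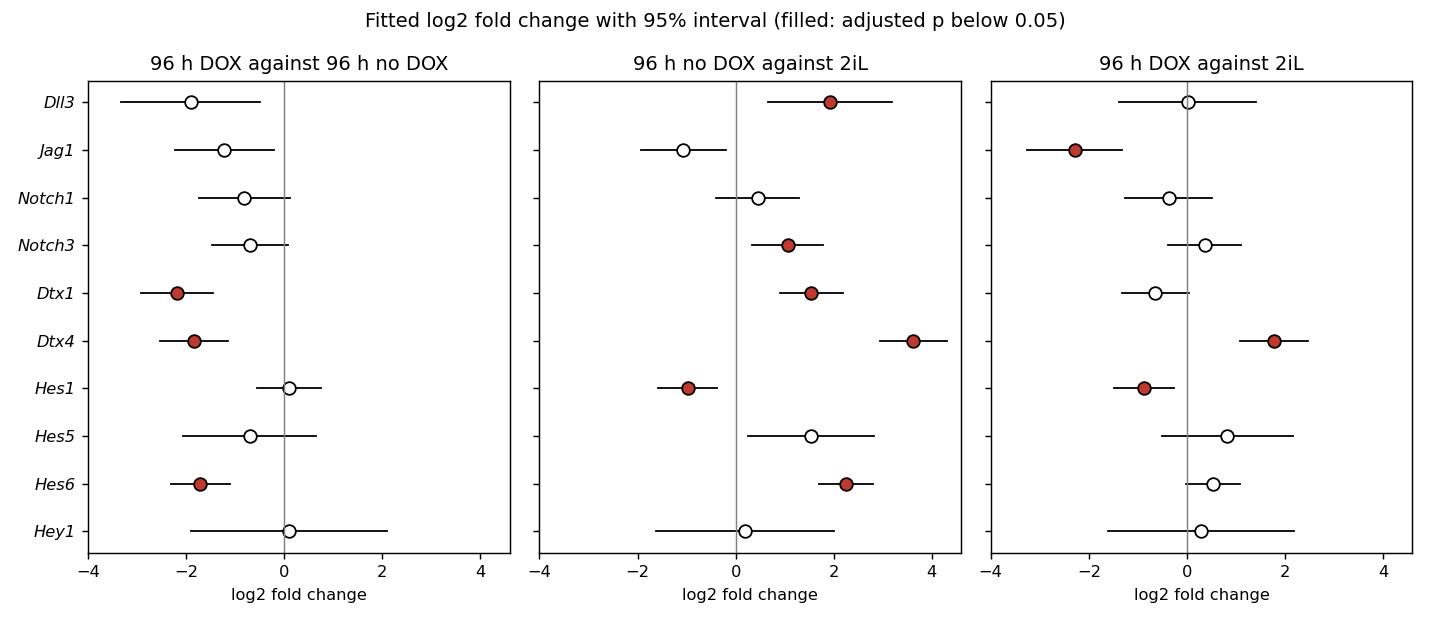
Log2 fold change (horizontal axis) of each gene with its 95% interval in the 3 comparisons of group means; filled points have an adjusted p below 0.05 in edgeR's quasi-likelihood test over 11215 genes. Filled points are Dtx1, Dtx4 and Hes6 in the comparison of DOX with no DOX, 6 genes in the comparison of no DOX with 2iL, and Dtx4, Hes1 and Jag1 in the comparison of DOX with 2iL.

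The comparison of 96 h no-DOX cells with 2iL cells asks how the pathway changed as cells left naive pluripotency. Dll3, Notch3, Dtx1, Dtx4 and Hes6 rose after removal of 2iL and Hes1 fell, while Jag1, Notch1, Hes5 and Hey1 did not pass. Of all genes tested, 20.4% were called (11.5% higher and 8.9% lower), against 6 of the 10 Notch genes. The median log2 fold change was 1.30 over the 10 genes and 0.00 over all genes. The 10 genes were listed with earlier results of these data known, which may bear on this count and median. Over the 55 other pathway genes tested the median was 0.08. This comparison shares its no-DOX libraries with the one above.

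Dtx4 had 103.6, 91.9 and 74.4 CPM in the no-DOX libraries, against 6.31, 7.29, 9.80 and 5.53 CPM in 2iL libraries exp1_1, exp1_2, exp2_1 and exp2_2. The lowest no-DOX library was far above each 2iL library. The means were 90.0 ± 14.7 and 7.23 ± 1.86 CPM (SD, n = 3 and 4), a log2 fold change of 3.62 ± 0.33 (edgeR adjusted p = 1.21e-07). It was 3.84 in experiment 1 and 3.26 in experiment 2.

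Hes6 averaged 244 ± 39.0 CPM in no-DOX libraries, against 62.1, 48.7, 40.7 and 54.2 CPM in the 2iL libraries, with no overlap. It rose by 2.25 ± 0.27 on the log2 scale (edgeR adjusted p = 2.75e-06), by 2.23 within experiment 1 and by 2.16 within experiment 2. Dtx1 averaged 89.6 ± 11.2 CPM in no-DOX libraries, against 47.8, 26.3, 24.8 and 24.3 CPM in the 2iL libraries. It rose by 1.54 ± 0.31 on the log2 scale (edgeR adjusted p = 0.00102), by 1.18 within experiment 1 and by 2.05 within experiment 2. With experiment 1 alone the call for Dtx1 was lost (1.17, edgeR adjusted p = 0.111).

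Hes1 fell. It had 16.1, 21.5 and 24.0 CPM in the no-DOX libraries, against 35.6, 31.2, 45.3 and 50.5 CPM in the 2iL libraries, which did not overlap. The log2 fold change was -0.98 ± 0.29 (edgeR adjusted p = 0.0189). It was -0.82 in experiment 1 and -0.99 in experiment 2. Hes1 did not pass without 2iL exp2_1, 2iL exp2_2 or no-DOX exp1_1 (adjusted p 0.0126 to 0.103 over the 10 single omissions) and within experiment 1 (0.257). Hes6 and Hes1 thus moved in opposite directions when 2iL was removed.

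Dll3 averaged 15.1 ± 4.35 CPM in no-DOX libraries, against 0.332, 2.04, 8.27 and 5.16 CPM in the 2iL libraries. The 2iL libraries of experiment 1 were lower than those of experiment 2, and 2iL exp1_1 held 1 read. Dll3 rose by 1.93 ± 0.61 on the log2 scale (edgeR adjusted p = 0.0283), by 3.41 in experiment 1 and by 1.47 in experiment 2. Dll3 did not pass without 2iL exp1_1, 2iL exp1_2, no-DOX exp1_1 or no-DOX exp2_2 (adjusted p 0.0111 to 0.104 over the 10 single omissions).

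Notch3 averaged 19.8 ± 3.71 CPM in no-DOX libraries, against 8.64, 8.75, 10.1 and 10.3 CPM in the 2iL libraries, with no overlap. It rose by 1.06 ± 0.35 on the log2 scale (edgeR adjusted p = 0.0328), by 1.20 in experiment 1 and by 0.92 in experiment 2. Notch3 did not pass when any 1 of the 4 2iL libraries, no-DOX exp1_1 or no-DOX exp2_2 was left out (adjusted p 0.0259 to 0.149 over the 10 single omissions). It also did not pass without a filter on low counts (0.0836), in experiment 1 alone (0.166) or with a replicate block of experiment plus library number (0.0530), in a range of 0.0137 to 0.166 over 11 alternatives.

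Jag1 averaged 9.12 ± 2.63 CPM in no-DOX libraries, against 20.6, 13.4, 17.8 and 25.1 CPM in the 2iL libraries. The groups did not overlap, yet the test did not pass (-1.06 ± 0.41; edgeR adjusted p = 0.0770, and 0.0483 by DESeq2). Notch1 averaged 19.1 ± 7.50 CPM in no-DOX libraries, against 19.3, 20.1, 8.88 and 7.74 CPM in the 2iL libraries (0.45 ± 0.40; edgeR adjusted p = 0.517). Hes5 averaged 7.68 ± 5.01 CPM in no-DOX libraries, against 1.99, 3.50, 2.14 and 2.95 CPM in the 2iL libraries (1.54 ± 0.62; edgeR adjusted p = 0.0875), and it passed without no-DOX exp2_2 (1.90, adjusted p = 0.0404; 0.0404 to 0.487 over the 10 single omissions). Hey1 held 27 reads in no-DOX libraries and 25 reads in 2iL libraries and did not pass (95% interval -1.63 to 2.01).

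The comparison of 96 h DOX cells with 2iL cells shares libraries with both others and gives where each gene stood against the starting culture. Dtx4 was higher than in 2iL (log2 fold change 1.78 ± 0.33; edgeR adjusted p = 0.000750), with the lowest DOX library at 16.8 CPM and the highest 2iL library at 9.80 CPM. Without DOX exp1_2 the value for Dtx4 was 1.93 (edgeR adjusted p = 0.000325). Jag1 was lower than in 2iL, at 4.08 ± 1.85 CPM against 19.2 ± 4.89 CPM (SD, n = 3 and 4; -2.29 ± 0.47; edgeR adjusted p = 0.00168); the change was -1.79 in experiment 1 and -3.29 in experiment 2. Jag1 had -2.54 without DOX exp1_2 (edgeR adjusted p = 0.00159), and its call was lost with experiment 1 alone (-1.77, adjusted p = 0.0860). Hes1 was lower, at 21.8 ± 2.26 CPM against 40.6 ± 8.82 CPM (-0.88 ± 0.29, edgeR adjusted p = 0.0437). Yet it did not pass under 7 of 11 alternatives other than single omissions, of which 1 repeats the deposited counts. It also missed the threshold without 2iL exp1_1, 2iL exp2_1, 2iL exp2_2 or 1 of the 3 DOX libraries in turn (adjusted p 0.0350 to 0.147 over the 10 single omissions).

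Of all genes tested, 16.7% were called in DOX cells against 2iL (9.84% higher and 6.83% lower), against 3 of the 10 Notch genes. Of the called genes 59.0% were higher, and 70.9% without scaling beyond library size, which moved the median of all genes to 0.17 from 0.02 on the log2 scale. Dtx1 (-0.64 ± 0.33; edgeR adjusted p = 0.200), Hes6 (0.54 ± 0.27; 0.184), Dll3 (0.01 ± 0.67; 0.992) and Notch3 (0.36 ± 0.36; 0.551) did not pass. Their DOX and 2iL libraries overlapped, but the 95% intervals were wide: -1.33 to 0.04 for Dtx1, -0.02 to 1.09 for Hes6, -1.39 to 1.42 for Dll3 and -0.39 to 1.10 for Notch3. Without DOX exp1_2, in which Hes6 had 40.8 CPM, Hes6 passed (0.80; edgeR adjusted p = 0.0190; 0.0190 to 0.662 over the 10 single omissions).

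**Figure D3:**
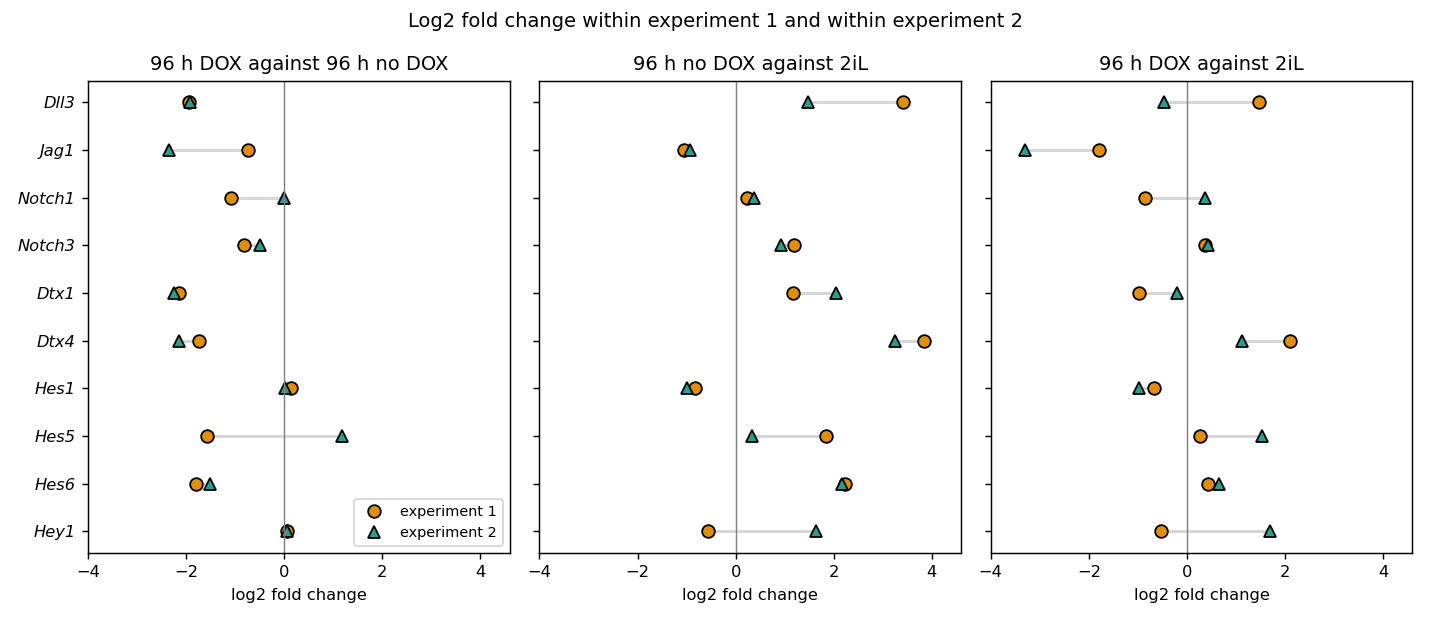
Log2 fold change (horizontal axis) of each gene within experiment 1 (circles) and within experiment 2 (triangles) for the 3 comparisons. Both experiments lie on the same side of 0 in the first 2 panels for Dtx1, Dtx4, Hes6, Hes1, Dll3, Jag1, Notch1 and Notch3. Hes5 lies at -1.58 and 1.18 in the comparison of DOX with no DOX, and Hey1 at -0.57 and 1.64 in that of no DOX with 2iL.

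The difference of each change between the experiments was tested as an interaction in edgeR. Over the 10 genes and 3 comparisons the adjusted p ran from 0.713 (Dll3, no DOX against 2iL) to 1.00, and 1 of the 30 values had an unadjusted p below 0.05 (Hes5, DOX against no DOX, 0.0459). Over all genes 5.47%, 7.61% and 6.43% had such a p in DOX against no DOX, no DOX against 2iL and DOX against 2iL, and 0, 1 and 0 genes were called. With RLE scaling no gene of the 10 passed either, and the test rests on 1 library per 96 h group in experiment 2.

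The wider pathway was described from a list of 83 genes, of which 82 were in the count files and 65 passed the filter. Without the 10 genes above, 55 were tested. Genes that the filter removed were not tested, among them the ligand genes Dll1, Dll4 and Dlk2. In DOX, no-DOX and 2iL libraries Dll1 held 4, 60 and 7 reads, Dll4 0, 22 and 0, and Dlk2 1, 0 and 1. Without DOX exp1_2 Dll1 was tested with DOX against no DOX and did not pass (-3.30 ± 1.28, edgeR adjusted p = 0.254). With DOX against no DOX, 1 of these 55 was called (1.82%), near the 3.1% of all genes, and the median log2 fold change was -0.13. This was Tle4, a Groucho corepressor that Hes proteins recruit, at 238 ± 50.1 CPM with DOX and 133 ± 12.3 CPM without DOX (0.84 ± 0.23; edgeR adjusted p = 0.0466). Tle4 had 194, 293 and 228 CPM in DOX libraries exp1_1, exp1_2 and exp2_1, and without exp1_2 the call was lost (0.66, adjusted p = 0.121). Rbpj, the DNA-binding partner of Notch, ranged from 59.2 to 74.7 CPM with DOX, from 42.2 to 63.4 CPM without DOX and from 50.8 to 89.0 CPM in 2iL and did not pass in the 3 comparisons (edgeR adjusted p 0.379 to 0.972). Rfng, a fringe enzyme that adds sugar to Notch, did not pass, with 30.5 ± 17.8 CPM with DOX and 75.2 ± 24.7 CPM without DOX (edgeR adjusted p = 0.0506, and 0.132 without DOX exp1_2).

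After removal of 2iL, 7 of the 55 other pathway genes rose and 2 fell (16.4% called, against 20.4% of all genes). The ligand gene Jag2 had 17.4 ± 10.6 CPM in no-DOX cells and 2.02 ± 1.02 CPM in 2iL (log2 fold change 3.08 ± 0.57; edgeR adjusted p = 0.000494). The fringe genes Mfng and Lfng rose, to 16.8 ± 7.34 CPM in no-DOX cells against 0.802 ± 0.375 CPM in 2iL (4.33 ± 0.66; edgeR adjusted p = 6.25e-05), and to 10.3 ± 6.95 against 1.23 ± 0.395 CPM (3.05 ± 0.66; 0.00208), while the third fringe gene, Rfng, did not pass (0.15 ± 0.31; 0.807). Neurl1b, a ubiquitin ligase that acts on ligands, rose to 5.77 ± 4.54 CPM in no-DOX cells, against 0.325 ± 0.0337 CPM on 4 reads in 2iL (edgeR adjusted p = 0.00183). Neurod1, a proneural factor, had 29.7 ± 10.6 CPM in no-DOX cells and 1.57 ± 0.535 CPM in 2iL and rose by 4.19 ± 0.45 on the log2 scale (edgeR adjusted p = 9.66e-07). Ctbp2 (1.06) and Tcf12 (1.45) also rose, and Kat2b (-1.08), a histone acetyltransferase, and Tle6 (-1.46) fell on that scale. The 8 tested genes of receptor cleavage lay between -0.48 and 0.42 and did not pass. In DOX cells against 2iL, 8 of the 55 genes were called higher (Ctbp2, Jag2, Mfng, Nedd4, Neurl1b, Neurod1, Tcf12 and Tle4) and 3 lower (Neurl1a, Rfng and Tle3), beside 16.7% of all genes called. Without DOX exp1_2, 6 were higher and 3 lower of 57 tested; Nedd4, Tcf12 and Rfng did not pass there, and Tcf4 did.

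**Figure D4:**
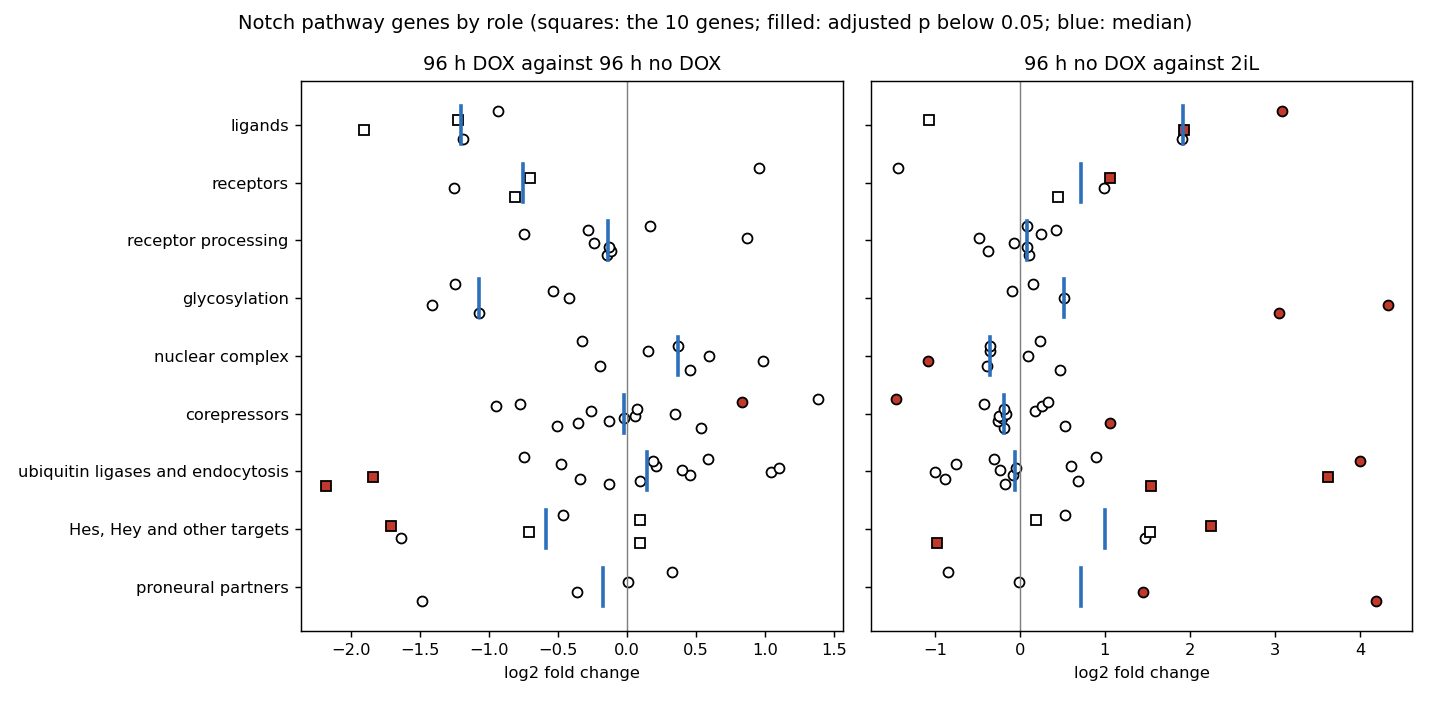
Log2 fold change (horizontal axis) of 65 tested Notch pathway genes by role, with DOX against no DOX (left) and no DOX against 2iL (right); squares are the 10 genes described above, filled points have an edgeR adjusted p below 0.05, and blue bars are medians. With DOX, the filled points are Dtx1, Dtx4 and Hes6 on the lower side and Tle4 on the higher side.

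Genes whose profiles were most like those of the called Notch genes were taken by Pearson r of log2(CPM + 1) over the 10 libraries, as a description. The libraries fall into 3 groups that all these genes share, so high values are common. The closest to Dtx4 was Fermt1 (r = 0.984), an integrin activator, followed by Prkra (0.982) and Mbtd1 (0.974). The closest to Hes6 was Phf21b (0.978), followed by Btbd17 (0.973) and the semaphorin gene Sema3e (0.972). Dtx1 was nearest to Sdc1 (0.962), a syndecan, Zfp512 (0.959) and Scaf8 (0.957). Notch3 was nearest to Lrfn4 (0.971), Spn (0.969) and Sox3 (0.968). Hes1 was nearest to M1ap (0.983), Ifi35 (0.969) and Camkk2 (0.964). The genes nearest to Jag1 were Zadh2 (0.959), Dctn2 (0.958) and Dnajc5g (0.942), and those nearest to Dll3 were Rab28 (0.937), Efna2 (0.927) and Card10 (0.915). Among the 10 genes themselves, r was 0.908 between Dtx4 and Hes6, 0.901 between Dtx4 and Notch3 and -0.80 between Dtx4 and Hes1.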

How the data were processed

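Per the labels, 3′ digital gene expression libraries were made from polyA RNA. The submitters' processing notes name bcl2fastq, STAR 2.6.0a, HTSeq and mm10 (annotation release, strand setting: not given in the sources used here). Tests used the read counts that the authors deposited for 10 libraries. The 5 HTSeq summary lines, which held 62.7% to 68.4% of the total in each count file, were taken off first. The summary line for alignments that were not unique held 56.4% to 62.4% of that total, which need not equal a share of reads. Genes with near-identical copies may be undercounted. The deposited CPM table was used as a check: 310530 of 310530 values (100.0%, within 0.01 of a whole number) gave whole reads equal to the counts. The same test on these reads had to repeat the calls and adds no support. It called 348 genes in DOX against no DOX, 2289 in no DOX against 2iL and 1870 in DOX against 2iL. Symbols came from a name table (30934 of 31053 IDs matched) and positions from GENCODE vM21 on GRCm38. Annotated genes overlap Hes5, Notch1 and Notch3; of these, Gm17276 (Notch3) was listed in the counts, with 0 reads.

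filterByExpr (minimum count 10) left 11215 genes. A quasi-likelihood model (edgeR 4.0.16, R 4.3.3; TMM scaling, robust dispersion) was fitted to all 10 libraries, without covariates, and adjusted p over all genes. SEs come from the fold change and the F statistic. Alternatives used DESeq2 1.42.0, limma 3.58.1 (voom), other scalings, filters and blocks; leaving DOX exp1_2 out for list genes was added after the data were seen. The fit was tested on simulated data, and percentages follow the order DOX against no DOX, no DOX against 2iL and DOX against 2iL. It recovered 11.8%, 21.4% and 11.3% of genes changed by 1 on the log2 scale. Of genes changed by 2, it recovered 70.1%, 76.3% and 75.3%. Changes of 1 were thus mostly missed in the simulation. There 93, 101 and 81 genes were called, against 348, 2289 and 1870 in the data. Adjusted p depends on how many genes change, so these percentages need not hold for the data. The members and lists were chosen with earlier results of these data known. Named were the 10 genes, called genes of the pathway lists, and the 3 genes most like each called gene. Rbpj, Rfng, the receptor cleavage genes and the filtered ligand genes were chosen after their values were seen. A comparison of protein sequences was not made. CPM levels carry counting error as well as spread between libraries.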

Additional observations from a re-analysis of the deposited data

Results flagged for a closer look

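Dtx1 in 2iL library exp1_1 was at 47.8 CPM, far from the other 3 libraries of its group (24.3 to 26.3 CPM). Groups of 4 libraries were tested in this way for 10 genes, and chance flags about 1 in 20 groups. Without this library the rise of Dtx1 in no-DOX cells against 2iL was 1.83 on the log2 scale, against 1.54 with it.

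In 3 cases the compared groups lay apart in opposite directions in experiments 1 and 2, and the test of the difference did not pass. Experiment 2 held 1 library in each 96 h group. For Hes5 its direction therefore rests on 1 library against 1, which always gives a direction. For Dll3 and Notch1 it rests on 1 DOX library against 2iL libraries exp2_1 and exp2_2. For Hes5 with DOX against no DOX, the change in experiment 2 minus that in experiment 1 was 2.76 ± 1.28 on the log2 scale (edgeR adjusted p = 0.892). For Dll3 with DOX against 2iL it was -1.92 ± 1.18 (adjusted p = 0.792), and for Notch1 with DOX against 2iL it was 1.21 ± 0.70 (adjusted p = 0.779).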

How the results depend on the processing

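Over 21 alternatives, 574 log2 fold changes of the 10 genes kept their direction and their side of the threshold, 33 lost a call, 3 gained one and 15 changed sign. Of these alternatives, 1 used the reads recovered from the CPM table, which equal the counts, so its values could not change. With DOX against no DOX, Dtx1, Dtx4 and Hes6 stayed called in the 10 of 10 fits that left out a library and under the other alternatives, except Dtx4 with experiment 1 alone. The count of all genes called in that comparison was 348. It was 161 to 358 when a library was left out (161 without no-DOX exp1_1 and 181 without no-DOX exp2_2), 564 without a filter, 563 by DESeq2, 212 with only the 2 compared groups, 108 with experiment 1 alone and 159 with a replicate block of experiment plus library number. After removal of 2iL, 3 to 6 of the 10 genes were called when a library was left out (3 without no-DOX exp1_1), and 3 of 10 with experiment 1 alone, where 1226 of all genes were called. For DOX against 2iL, experiment 1 alone gave 926 genes and 1 of the 10. Deviations of same-numbered libraries from their group means had correlations of -0.101 to 0.227. With so few libraries per group, this check cannot tell whether the numbers pair them. The experiment alone as a replicate block gave 347 calls with DOX. The cause of these shifts was not tested; experiment 1 alone and single omissions also use fewer libraries. Values that changed sign were not called: when a library was left out, Hes1 with DOX ran from -0.047 to 0.22, Hey1 from -0.33 to 0.58 with DOX against no DOX, from -0.28 to 0.62 for no DOX against 2iL and from -0.017 to 0.70 for DOX against 2iL, and Dll3 for DOX against 2iL from -0.37 to 0.70. With experiment 1 alone Hey1 gave -0.59 (no DOX against 2iL) and -0.50 (DOX against 2iL), and without a filter Dll3 gave -0.012 (DOX against 2iL). With RLE scaling the difference between experiments with DOX was -0.0033 for Hey1 and -0.0092 for Dll3. Without TMM scaling the mean of Notch1 with DOX was 11.5 CPM, against 10.8 CPM with it.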

Other observations

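Hes3, another Hes gene, had 1.89, 0.729 and 0.918 CPM in DOX libraries exp1_1, exp1_2 and exp2_1, against 3.51, 4.73 and 3.81 CPM in no-DOX libraries, and it did not pass (-1.64 ± 0.86; edgeR adjusted p = 0.389). In 2iL it had 1.99, 2.04, 0.918 and 0.737 CPM. Nrarp, a target that restrains Notch, ranged from 3.64 to 6.87 CPM with DOX, from 7.02 to 8.81 CPM without DOX and from 1.75 to 9.80 CPM in 2iL. Nrarp did not pass with DOX against no DOX (-0.47 ± 0.58, edgeR adjusted p = 0.764). It also did not pass in no DOX against 2iL (adjusted p = 0.567) or DOX against 2iL (0.955). These genes were chosen after their values were seen.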
